A study of Homo sapiens with 9 samples.

Results

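Type I interferons signal through a receptor on the cell surface, made of IFNAR1 and IFNAR2, to the kinases JAK1 and TYK2. These activate transcription factors, STAT2 among them, that act with IRF9 at a short DNA element, the interferon-stimulated response element, in front of a large set of antiviral genes. In cancer cells that meet no interferon, many of these genes are nearly silent, while some keep a basal level. The 38 genes described here are type I interferon response genes and the factors that switch them on, taken by symbol from the deposited gene counts. All 38 had a row among 60325 gene rows. By the rule that a gene needs 10 or more counts in at least 3 libraries, 26 were measurable and 12 were not, and the same 26 passed the filter for testing.

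The cells were LAPC4, a human prostate cancer line described in the labels as prostate epithelial cancer cells, all taken at day 30. There were 3 groups of 3 libraries: control cells (titled NT), cells labelled UGT2B28 knockdown, and cells labelled rescue, which carried the same knockdown together with added UGT2B28. UGT2B28 is an enzyme that conjugates androgens with glucuronic acid. Puromycin at 3 ug/mL selected for the knockdown and G418 at 1 mg/mL for the rescue, and no drug is given for the controls, so an effect of a drug cannot be told apart from one of the construct. The titles name one knockdown construct, KD4, and the labels leave unsaid if each replicate was its own culture. The p-values therefore reflect how much these libraries vary, and that variation may be technical only.

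Gene counts summed to between 8132206 and 14185252 per library. UGT2B28 had 44, 50 and 76 counts in control, 63, 70 and 28 in knockdown-labelled and 1139, 1062 and 539 in rescue libraries. In CPM (gene counts scaled to a common library size with TMM factors) it stood at 5.12, 5.10 and 7.80 in control libraries. In knockdown-labelled libraries 1, 2 and 3 it stood at 8.48, 6.18 and 3.05. Library 3 thus lies below every control library, and libraries 1 and 2 do not. The log2 fold change against control was -0.04 (edgeR adjusted p = 0.957). For the group, UGT2B28 mRNA does not bear out the knockdown label, and the group is called knockdown-labelled throughout. Knockdown-labelled libraries 1 and 2 resembled each other, with a chi-square per degree of freedom of 3.52, and library 3 stood apart from them at 66.3 and 72.8. The 13 mitochondrial mRNAs took 11.5%, 12.05% and 8.59% of the gene counts in the knockdown-labelled libraries, 6.04% to 6.90% in control and 4.41% to 6.18% in rescue. The 10 prostate epithelial markers were all measurable and summed to between 3688 and 6530 CPM. Of 12 immune cell markers, PTPRC, CD8A, MS4A1, LYZ and FCGR3A had 0 counts in all 9 libraries, and the whole list summed to 5.66 to 12.7 CPM. The 8 fibroblast markers summed to 20.5 to 70.3 CPM in control, 42.5 to 50.1 in knockdown-labelled and 49.4 to 130 in rescue libraries. Of these, DCN and LUM lay wholly above control in both other groups: DCN was at 2.26 to 3.47 CPM in control, 5.44 to 13.1 in knockdown-labelled and 12.3 to 13.9 in rescue libraries (rescue against control 2.21 on the log2 scale, edgeR adjusted p = 0.0326). LUM was at 0.816 to 2.26, 3.05 to 7.81 and 5.76 to 9.36 CPM in the same groups, without a call. COL1A1, COL1A2 and COL3A1 overlapped between control and both other groups. In knockdown-labelled against control they were at log2 fold changes of -0.15, -0.11 and 0.44. In rescue against control they were at 0.64, 1.48 and 1.21, without a call, and all 5 fibroblast markers tested were positive there. PDGFRB, FAP and THY1 had too few counts to be tested. The part of these markers in the results was not tested. In bulk RNA, fewer cells that express a gene and less RNA per cell cannot be told apart.

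Within the module the levels spanned a wide range, from ADAR and IRF3 at the top to OAS2 and SAMD9 at the bottom. On the scale of CPM per kilobase of exon, averaged over the 9 libraries, the RNA-editing enzyme ADAR stood at 20.7, the transcription factor IRF3 at 19.1, the kinase TYK2 at 15.0, the ubiquitin-like protein ISG15 at 12.3, the receptor chain IFNAR1 at 9.09 and STAT2 at 8.96. These 6 genes were the 6 highest in each of the 3 groups. The exon length joins all annotated exons of a gene, and for some genes it far exceeds the longest transcript. It was 8616 bases beside 3470 for MX1 and 9501 beside 5734 for TRIM25, but 6301 beside 6139 for IFNAR1. The order therefore depends on the length used. The next genes were TRIM25 (6.66), MX1 (5.62), USP18 (4.73) and IRF7 (4.56). Counts of signalling partners differed per length: JAK1 stood at 0.898 beside 15.0 for TYK2, IFNAR2 at 1.81 beside 9.09 for IFNAR1, and IRF9 at 0.530 beside 8.96 for STAT2. IRF9 and IFNAR2 share 100% and 80.7% of their 100-base stretches with another annotated gene, so reads may have gone uncounted and their levels are uncertain.

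**Figure D1:**
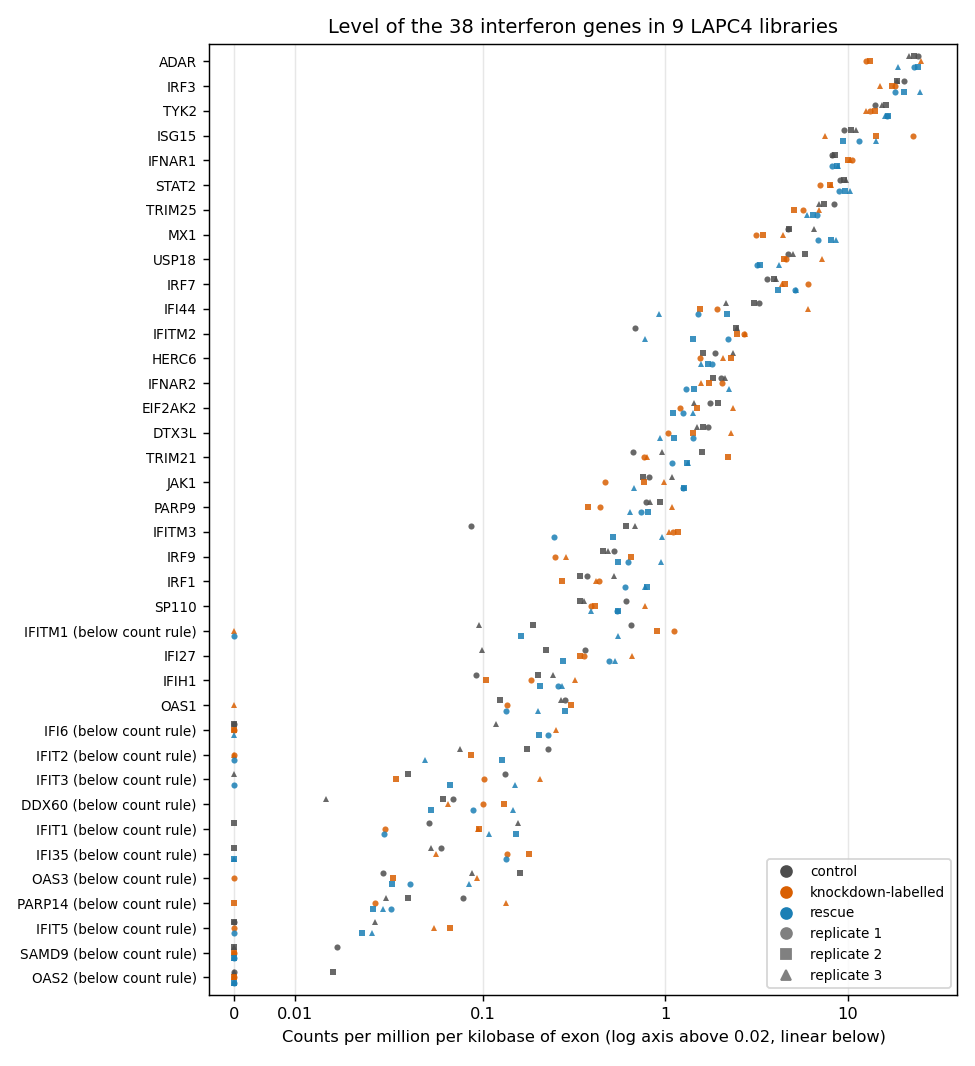
Level of each of the 38 genes in every library, in CPM per kilobase of exon, on an axis that is logarithmic above 0.02 and linear below. Colour gives the group and shape the replicate. Genes are ordered by their mean over the 9 libraries, from OAS2 at the bottom to ADAR at the top, and genes below the count rule, IFITM1 excepted, fill the lowest rows.

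The 12 genes below the count rule were DDX60, OAS2, OAS3, IFIT1, IFIT2, IFIT3, IFIT5, PARP14, IFITM1, IFI6, IFI35 and SAMD9. They include genes that are commonly used to read an interferon response. The tetratricopeptide proteins IFIT1, IFIT2, IFIT3 and IFIT5, which bind viral RNA or its translation machinery, had 34, 30, 18 and 8 counts in all 9 libraries together. IFI6, a mitochondrial and endoplasmic reticulum protein, had 8 counts, IFI35 had 13 and the membrane protein IFITM1 had 37. Of the IFITM1 exon bases 32.5% are shared with IFITM2 on the same strand, so reads of IFITM1 may have gone uncounted. OAS2, which makes the 2-5A second messenger, and SAMD9, a translation inhibitor, had 1 count each, in 1 control library each. The highest count of any of these 12 genes in any library was 13, for OAS3 and PARP14. Among the others no group stood at 0 throughout: DDX60 had 9, 19 and 23 counts in control, knockdown-labelled and rescue libraries together, IFIT1 had 9, 10 and 15, and IFIT2 had 18, 4 and 8. A count of 0 allows up to 3 counts, which was 0.198 to 0.404 CPM depending on the library and covers counting error only. Differences between groups were not tested for these 12 genes.

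The response element was looked for in the promoters of both the low and the measurable genes. Promoters (250 bases before to 50 after a start) were found by symbol for 31 of the 38 genes in RefSeq on GRCh38.p14; IFNAR2, IRF3, IRF7, OAS2, IFIT2, USP18 and IFITM2 were not matched. The core of the element, GAAA, any 2 bases and GAAA again, was searched on both strands, with overlapping matches allowed. It occurred in 19 of the 31 genes (61.3%), against 4.38% of the 27305 genes in the promoter table. It lay in 9 of the 10 matched genes below the count rule and in 10 of the 21 measurable ones. These 2 sets differ in kind. The matched receptors, kinases and transcription factors (IFNAR1, JAK1, TYK2, STAT2, IRF9 and IRF1) are all measurable and had no match. No gene of those roles is below the count rule. A link between the element and a low count was not tested. The windows below give 1 match of each gene in capitals with 10 bases on each side, read along the gene's own strand; in ISG15 a second match overlaps it, and MX1 (at another start), IFIT1 and IFI6 hold further matches. They are shown because MX1 is the gene whose change passed, ISG15 and IFI44 are measurable genes whose libraries differ, DTX3L and PARP9 share 1 match, and IFIT1, IFI6 and SAMD9 are barely detected.
MX1: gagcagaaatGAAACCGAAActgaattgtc
ISG15: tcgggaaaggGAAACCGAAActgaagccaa
IFI44: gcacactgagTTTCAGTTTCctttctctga
DTX3L: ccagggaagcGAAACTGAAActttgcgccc
PARP9: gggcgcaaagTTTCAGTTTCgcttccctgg
IFIT1: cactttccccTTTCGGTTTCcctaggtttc
IFI6: ggagagagggGAAAATGAAActgcagagtg
SAMD9: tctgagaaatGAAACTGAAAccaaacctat
The MX1 window lies at chr21:41420559-41420588 on the plus strand, just after an annotated start. That of ISG15 is at chr1:1013380-1013409 (plus), of IFI44 at chr1:78649761-78649790 (plus), of IFIT1 at chr10:89392510-89392539 (plus), of IFI6 at chr1:27672288-27672317 (minus) and of SAMD9 at chr7:93118096-93118125 (minus). The DTX3L and PARP9 windows are the same bases, chr3:122564322-122564351, read on opposite strands, within the stretch where the 2 annotated genes, which run in opposite directions, overlap. Among the windows shown, read on either strand, GAAACCGAAA occurs in MX1, in ISG15 and in the barely detected IFIT1. GAAACTGAAA occurs in DTX3L, PARP9 and IFI44 and in the almost silent SAMD9. A match is a description of the letters, not evidence of binding.

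MX1, a dynamin-like GTPase that traps viral nucleocapsids, was the 1 gene of the 26 that passed a test. It lies on chromosome 21 at 41420304 to 41459214 (GRCh38, plus strand). Its level was 40.6, 41.3 and 56.5 CPM in control, 27.1, 29.6 and 37.9 CPM in knockdown-labelled and 59.1, 69.4 and 74.3 CPM in rescue libraries. The 3 groups do not overlap: every knockdown-labelled library lies below every control library, and every rescue library above. MX1 rose 2.14-fold between knockdown-labelled libraries (31.5 ± 5.66 CPM, SD, n = 3) and rescue libraries (67.6 ± 7.77 CPM). That is a log2 fold change of 1.10 with an SE of 0.174, a 95% confidence interval of 0.72 to 1.48 and an edgeR adjusted p = 0.00909. Against the control mean of 46.2 ± 8.97 CPM (SD, n = 3) it did not pass in knockdown-labelled libraries (log2 fold change -0.55, 95% confidence interval -0.93 to -0.17, edgeR adjusted p = 0.138) or in rescue libraries (0.55, 95% confidence interval 0.17 to 0.93, edgeR adjusted p = 0.268). The rescue change held without knockdown-labelled library 3 (1.24) and with library 3 alone (0.86, edgeR adjusted p = 0.00541). With the control libraries left out of the fit its adjusted p was 0.0546. Of the MX1 exon bases, 2.74% overlap an annotated gene on the other strand.

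**Figure D2:**
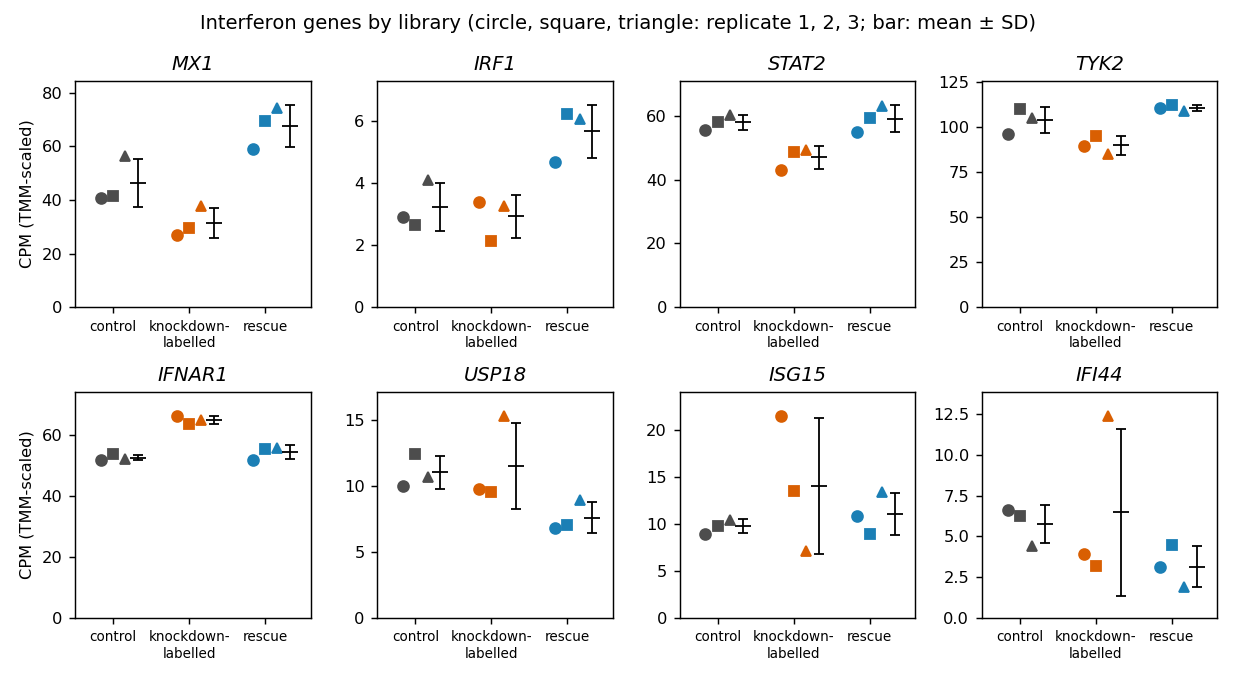
CPM of 8 of the genes in each library, with circles, squares and triangles for replicates 1, 2 and 3 and black bars for the mean and SD of the 3 libraries; each axis starts at 0. MX1 separates all 3 groups, IFNAR1 and STAT2 set the knockdown-labelled libraries apart, and in ISG15, USP18 and IFI44 knockdown-labelled library 3 lies away from libraries 1 and 2.

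Setting rescue beside knockdown-labelled cells addresses the effect of added UGT2B28. MX1 was the 1 call among the 26 genes, where 9.83% of all 16796 genes tested passed (4.44% higher and 5.39% lower), so the module held no more calls than the background. Of the 26 values 12 were positive, against 49.7% of all genes, and the median was -0.04 beside -0.00 over all genes. In 4 genes (15.4%), MX1, IRF1, STAT2 and TYK2, every rescue library lay above every knockdown-labelled one, against 14.6% of all genes. In another 4, IFNAR1, USP18, IFITM2 and IFITM3, every rescue library lay below, against 14.0%.

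The transcription factors were the role with most positive values in that comparison, 4 of 5, without a call. IRF1, an inducible activator of interferon genes, stood at 2.91, 2.65 and 4.10 CPM in control, 3.36, 2.12 and 3.26 in knockdown-labelled and 4.68, 6.21 and 6.06 in rescue libraries. All 3 rescue libraries are above the other 6. Rescue exceeded knockdown-labelled by 0.96 on the log2 scale (95% confidence interval 0.29 to 1.63, SE 0.304, edgeR adjusted p = 0.0690) and control by 0.80 (edgeR adjusted p = 0.370). Of the IRF1 exon bases 22% overlap genes on the other strand, whose reads could be mixed in if counting ignored strand. STAT2, the subunit that carries the activation domain of the complex with IRF9, stood at 55.5, 58.2 and 60.2 CPM in control, 42.9, 48.7 and 49.4 in knockdown-labelled and 54.96, 59.4 and 63.3 in rescue libraries. Its knockdown-labelled libraries are the 3 lowest, and control and rescue overlap. Rescue against knockdown-labelled gave 0.33 (SE 0.111, edgeR adjusted p = 0.0827) and knockdown-labelled against control -0.30 (SE 0.111, edgeR adjusted p = 0.186).

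IRF3, the constitutive factor that turns on interferon genes after nucleic acid sensing, stood at 77.2, 71.0 and 70.6 CPM in control, 69.0, 66.6 and 57.0 in knockdown-labelled and 68.9, 77.8 and 94.2 in rescue libraries. The rescue group spread widely and overlapped both others (0.32 against knockdown-labelled, SE 0.136, edgeR adjusted p = 0.153). Of its exon bases 19.3% overlap BCL2L12 on the other strand. IRF7, which amplifies interferon production, had 9.55, 10.4 and 10.7 CPM in control, 15.9, 11.9 and 11.4 in knockdown-labelled and 13.5, 10.8 and 13.7 in rescue libraries. All 6 knockdown-labelled and rescue libraries of IRF7 exceed the 3 controls, at log2 fold changes of 0.35 and 0.31 that did not pass (edgeR adjusted p = 0.340 and 0.618). IRF9, the DNA-binding subunit of the complex, had 1.98, 1.73 and 1.85 CPM in control, 0.942, 2.47 and 1.09 in knockdown-labelled and 2.37, 2.10 and 3.58 in rescue libraries. Its rescue libraries are above the controls but overlap the knockdown-labelled ones, and 48.4% of its exon bases are shared with a read-through gene on the same strand, so its counts are uncertain.

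Among receptors and kinases, IFNAR1 was the most tightly measured. It stood at 51.8, 53.6 and 52.2 CPM in control, 66.2, 63.6 and 64.9 in knockdown-labelled and 51.8, 55.4 and 55.8 in rescue libraries. The 3 knockdown-labelled libraries, library 3 included, lie above the other 6. The log2 fold change was 0.30 for knockdown-labelled against control (SE 0.0986, 95% confidence interval 0.09 to 0.52, edgeR adjusted p = 0.144) and -0.26 for rescue against knockdown-labelled (edgeR adjusted p = 0.118). With library size in place of TMM it was 0.08 and -0.01 in these comparisons.

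TYK2, the kinase bound to IFNAR1, was at 96.1, 110 and 105 CPM in control, 89.4, 95.3 and 84.98 in knockdown-labelled and 111, 112 and 109 in rescue libraries. Its knockdown-labelled libraries are the 3 lowest (0.30 for rescue against knockdown-labelled, SE 0.106, edgeR adjusted p = 0.0937). JAK1, the partner kinase on IFNAR2, was at 5.12, 4.80 and 6.87 CPM in control, 2.96, 4.86 and 6.20 in knockdown-labelled and 7.91, 8.05 and 4.27 in rescue libraries. IFNAR2, the high-affinity receptor chain, was at 9.32, 8.47 and 9.85 CPM in control, 9.42, 8.03 and 7.29 in knockdown-labelled and 5.997, 6.65 and 10.3 in rescue libraries. The groups overlap in JAK1 and IFNAR2, neither passed in any comparison, and 44.2% of the IFNAR2 exon bases are shared with another gene on the same strand.

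In the ISG15 system the knockdown-labelled libraries disagreed for ISG15 itself. ISG15, a ubiquitin-like protein attached to other proteins, stood at 8.97, 9.797 and 10.5 CPM in control, 21.5, 13.5 and 7.07 in knockdown-labelled and 10.9, 8.92 and 13.4 in rescue libraries. Knockdown-labelled libraries 1 and 2 are the 2 highest of all 9 and library 3 is the lowest. The place of library 2 rests on a near tie, 13.51 CPM beside 13.41 in rescue library 3. It also rests on the TMM scaling, since the 2 libraries had 153 of 14185252 and 135 of 9791044 gene counts. USP18, the protease that removes ISG15 and dampens receptor signalling, was highest in library 3: it stood at 10.01, 12.5 and 10.7 CPM in control, 9.82, 9.53 and 15.3 in knockdown-labelled and 6.79, 7.08 and 8.94 in rescue libraries. The 3 rescue libraries of USP18 are the lowest of all 9, at a log2 fold change of -0.61 against knockdown-labelled (SE 0.232, edgeR adjusted p = 0.116) and -0.54 against control (SE 0.232, edgeR adjusted p = 0.437). Of the 100-base stretches of its transcript, 15.4% also occur in another gene, mostly USP41. TRIM25, a ubiquitin ligase for the RNA sensor RIG-I, stood at 80.5, 70.9 and 66.5 CPM in control, 54.0, 48.0 and 66.5 in knockdown-labelled and 64.8, 61.4 and 57.2 in rescue libraries. Its knockdown-labelled library 3 lay at the lower edge of the control range, at 66.48 CPM beside 66.47 in the lowest control. The log2 fold change against control was -0.37 (SE 0.139, edgeR adjusted p = 0.191). HERC6 and TRIM21, also ubiquitin ligases, overlapped between all groups, at 9.02 to 13.6 and 1.28 to 4.24 CPM.

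**Figure D3:**
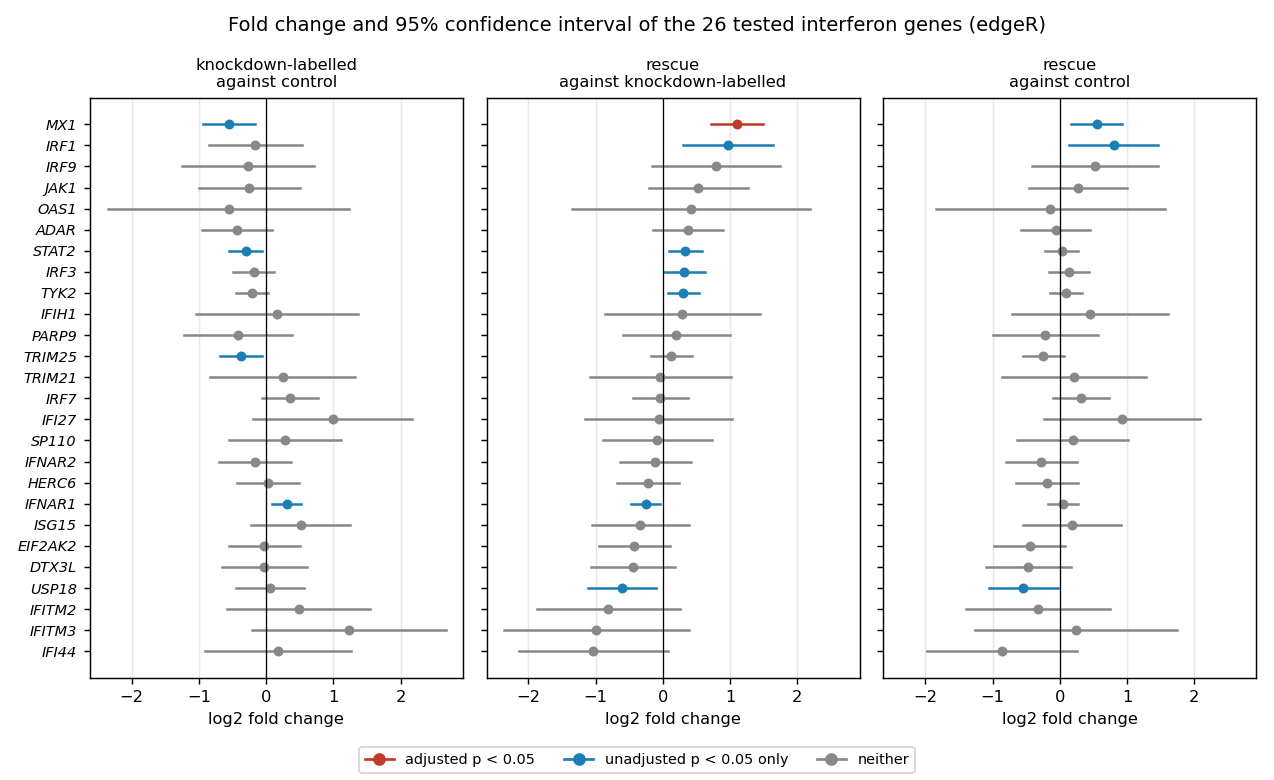
log2 fold change (points) and 95% confidence interval (lines) of the 26 measurable genes in the 3 comparisons, from edgeR, ordered by rescue against knockdown-labelled. Red marks an adjusted p under 0.05, blue an unadjusted p under 0.05 only; MX1 at 1.10 in the middle panel is the sole red point, and the outer panels have none.

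Knockdown-labelled against control cells addresses the effect of targeting UGT2B28. None of the 26 genes passed in edgeR, where 0.00595% of all genes did, and none passed with the DESeq2 Wald test or limma-voom. At an unadjusted p under 0.05 there were 4, IFNAR1 higher and MX1, STAT2 and TRIM25 lower, against 19.1% of all genes (11.3% higher and 7.81% lower). The median log2 fold change was -0.02 beside 0.02 over all genes, with 12 positive (51.4% of all genes were). Knockdown-labelled libraries lay wholly above control in 15.4% of the 26 genes, against 11.0% of all genes, and wholly below in 15.4%, against 10.2%. The 4 above were IFNAR1, IRF7, IFITM2 and IFITM3, and the 4 below MX1, STAT2, TYK2 and IRF3. For 14 of the 26 genes the 95% interval lay within 2-fold in each direction, and for the other 12 a 2-fold change was not excluded.

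IFITM2 and IFITM3, membrane proteins that block virus fusion, had their 3 highest libraries in the knockdown-labelled group. IFITM3 stood at 0.116, 0.816 and 0.923 CPM in control, 1.48, 1.59 and 1.41 in knockdown-labelled and 0.329, 0.700 and 1.29 in rescue libraries, on 1 to 18 counts per library. IFITM2 stood at 1.05, 3.78 and 3.80, at 4.17, 3.80 and 4.24, and at 3.43, 2.19 and 1.19 CPM in control, knockdown-labelled and rescue libraries. For IFITM2 the place above control rests on a near tie, 3.796 CPM in knockdown-labelled library 2 beside 3.795 in control library 3. Neither gene passed (log2 fold changes of 1.23 and 0.49 against control, edgeR adjusted p = 0.331 and 0.625), their levels are low, 22.7% of the IFITM2 exon bases are shared with IFITM1, and 21.3% of the IFITM3 exon bases overlap a gene on the other strand.

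Rescue against control asks how the rescue cells differ from the control cells. None of the 26 passed in edgeR, where 0.149% of all genes did (0.143% higher), nor with the DESeq2 Wald test or limma-voom. The 3 with an unadjusted p under 0.05 were MX1 and IRF1, higher (6.3% of all genes were), and USP18, lower (4.24%). The median log2 fold change was 0.07 beside -0.01 over all genes, with 15 positive against 49.0% of all genes. Rescue libraries lay wholly above control in 15.4% of the genes (MX1, IRF1, IRF7 and IRF9), against 12.8% of all genes, and wholly below in 15.4% (USP18, EIF2AK2, TRIM25 and DTX3L), against 13.6%. This comparison shares its rescue and control libraries with the other 2.

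Knockdown-labelled library 3 stood apart from libraries 1 and 2 in the module as it did over all genes. It lay above both in 14 of the 26 genes (53.8%, against 43.6% of all genes tested) and below both in 7 (26.9%, against 43.2%). It lay above all 6 control and rescue libraries in 12 of the 26 (46.2%), against 27.5% of all genes, and below all 6 in 7 (26.9%), against 27.4%. The genes that follow were chosen after their values were seen, apart from ADAR. ADAR, which edits adenosine to inosine in double-stranded RNA, was at 122, 129 and 244 CPM in knockdown-labelled libraries 1, 2 and 3, against 235, 224 and 212 in control and 223, 236 and 183 in rescue libraries. Libraries 1 and 2 are thus the lowest of all 9 and library 3 the highest. PARP9, a macrodomain protein that works as a pair with the ubiquitin ligase DTX3L, was at 3.90, 3.35 and 9.79 CPM in these 3 libraries, and 5.76 to 8.37 CPM in the other 6. DTX3L itself was at 6.06, 8.30 and 13.4 CPM, and 5.46 to 10.1 in the other 6. In each case library 3 exceeds all the others. IFI44, a cytoplasmic antiviral protein, was at 3.90, 3.18 and 12.4 CPM against 1.89 to 6.64 in the other 6, and the RNA-activated kinase EIF2AK2 (PKR) at 12.9, 16.1 and 25.2 CPM against 11.8 to 21.0. SP110, a nuclear body protein, was at 2.69, 2.82 and 5.33 CPM against 2.35 to 4.19. ISG15 (7.07 CPM) and OAS1 (0 counts) are lowest in library 3, so the genes did not all go one way.

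**Figure D4:**
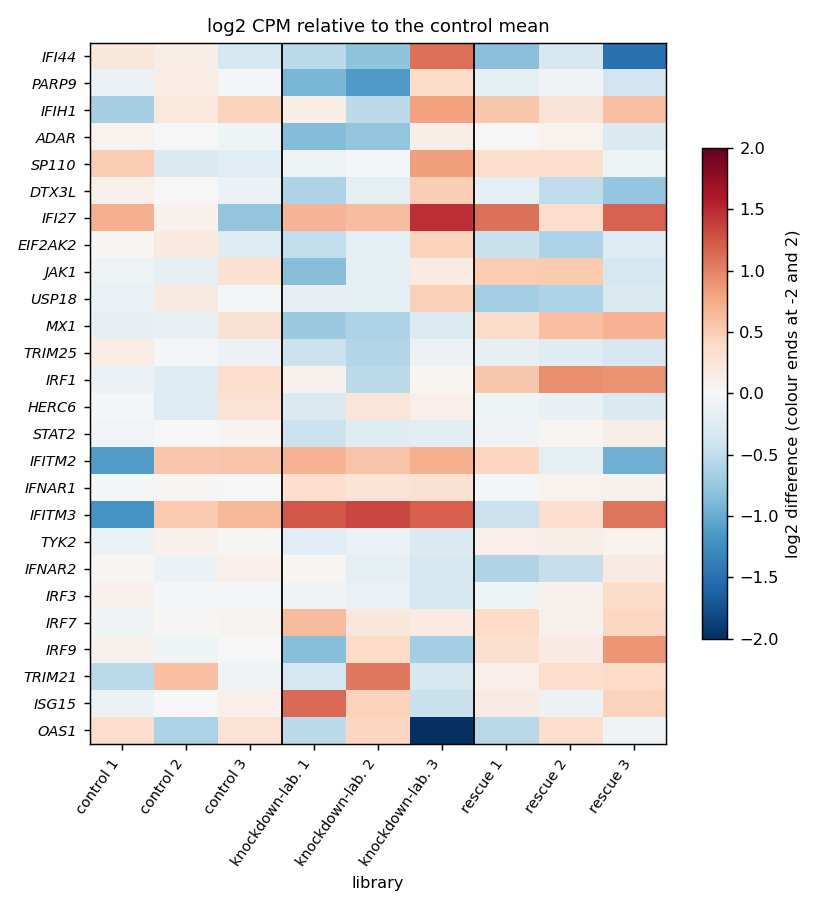
log2 CPM of the 26 measurable genes in each library relative to the control mean, with red above and blue below it, and rows ordered by knockdown-labelled library 3 minus the mean of libraries 1 and 2. IFI44, PARP9 and ADAR near the top are blue in knockdown-labelled libraries 1 and 2 and red in library 3, and ISG15 near the bottom is the opposite; OAS1 had 0 counts in library 3 and lies at the end of the colour scale.

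The number of calls depended on that library. Without library 3, 7 of the 26 genes passed in knockdown-labelled against control (32.9% of all genes did): ISG15 and IFNAR1 higher, and ADAR, MX1, PARP9, STAT2 and TRIM25 lower. With library 3 alone 1 passed (11.4% of all genes did), OAS1, which had 0 counts there. In rescue against knockdown-labelled, 8 passed without library 3 (39.0% of all genes) and 8 with library 3 alone (19.5%), and MX1 and TYK2 are the genes in both sets. ADAR was at -0.83 against control without library 3 and at 0.10 with library 3 alone. ISG15 was at 0.83 and -0.49. Fits with library 3 alone take their spread from the other groups. All 26 genes relative to the control mean had a median log2 difference of -0.26, -0.15 and 0.15 in knockdown-labelled libraries 1, 2 and 3, and of -0.01, 0.08 and 0.08 in rescue libraries. The mitochondrial share given above moved with libraries 1 and 2, and UGT2B28 was lowest in library 3. The part of either in these values was not tested.

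Other genes of the pathway were as divided as the module. Of 79 genes in 6 lists (ligands, other receptors and kinases, sensors and adaptors, transcription factors, negative regulators and other effectors), 40 could be tested. In rescue against knockdown-labelled libraries 2 rose and 2 fell, where 4.44% of all genes rose and 5.39% fell, with a median of -0.03. In the other 2 comparisons edgeR called none. At an unadjusted p under 0.05 there were 7 of 40 in knockdown-labelled against control, beside 19.1% of all genes, and 8 of 40 in rescue against control, beside 10.5%. HELZ2, a helicase induced by interferon, stood at 8.38, 8.88 and 4.51 CPM in control, 5.92, 5.30 and 7.40 in knockdown-labelled and 18.5, 17.1 and 15.997 in rescue libraries. Its 3 rescue libraries lie above all others, and it rose by 1.47 against knockdown-labelled (SE 0.255, edgeR adjusted p = 0.0108). PARP10, a mono-ADP-ribosyltransferase, stood at 39.4, 42.7 and 37.3, at 28.3, 29.2 and 14.4, and at 44.6, 47.1 and 39.5 CPM in the same order, and rose by 0.87 (SE 0.223, edgeR adjusted p = 0.0364). PTPN2, a phosphatase that removes phosphate from JAK1, stood at 55.3, 60.8 and 56.4, at 65.8, 75.3 and 70.1, and at 46.8, 49.3 and 46.6 CPM. The groups of PTPN2 do not overlap, and it fell by 0.57 on the log2 scale from knockdown-labelled to rescue (SE 0.105, edgeR adjusted p = 0.0139). The interferon gamma receptor chain IFNGR2 was at 63.9, 65.3 and 59.6 CPM in control, 64.7, 69.1 and 57.3 in knockdown-labelled and 48.0, 45.9 and 50.7 in rescue libraries, and fell by 0.40 on the log2 scale (SE 0.112, edgeR adjusted p = 0.0465). Of 17 alternatives, HELZ2 passed in 14, PTPN2 in 11, PARP10 in 8 and IFNGR2 in 3. Of 9 interferon ligand genes, none was measurable; IFNB1, IFNL1, IFNL2, IFNL3 and IFNG had 0 counts in all libraries, and IFNE had at most 8.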

How the data were processed

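Total RNA from 9 LAPC4 libraries was sequenced in read pairs per the labels' protocols. The submitters' processing notes name the hg38 build and the tools HTSeq, STAR, cutadapt and FastQC. The annotation and strand setting used for counting were not stated there. Each deposited file holds raw counts, which the authors had not scaled. HTSeq's 5 summary rows were left out throughout; 43.7% to 48.7% of all counts lay on no feature.

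All 16796 genes past filterByExpr (minimum count 10) entered 1 model over the 9 libraries, with TMM factors and the quasi-likelihood test of edgeR 4.0.16 (R 4.3.3), 6 residual degrees of freedom. A gene passed if its p, adjusted by Benjamini-Hochberg over all of them, was under 0.05. An SE was taken as the size of a log2 fold change over the square root of its F statistic. The fit was tested on simulated data. Positions, exon lengths and overlaps are from GENCODE release 29 on GRCh38; promoters are from RefSeq.

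The 38 members and all lists were chosen with earlier results of these data known. Values in every library were printed for members that passed, had an unadjusted p under 0.05, were among the 6 highest per length in a group, or were receptors, kinases or transcription factors. Other pathway genes were named if they passed. Alternatives were DESeq2 1.42.0 size factors and Wald test, limma 3.58.1 (voom), library size alone, no filter, a fit to the compared groups only, a block for replicate number, and libraries left out. Applying them to the other pathway genes was chosen after seeing the data. A result for 1 gene of the pathway lists is not reported here.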

Additional observations from a re-analysis of the deposited data

How the results depend on the processing

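Of 26 genes tested, 0 passed in knockdown-labelled against control, 1 in rescue against knockdown-labelled and 0 in rescue against control. With DESeq2 size factors and with limma-voom these numbers were unchanged. With the replicate number as a block (replicate block) they were 0, 1 and 0. Same-numbered libraries correlated from -0.35 to 0.08 in their deviations from group means, and differently numbered ones from -0.16 to 0.27. Deviations from means of 3 libraries cannot settle if same-numbered libraries belong together, which the labels do not state. In knockdown-labelled against control, 1 passed (MX1) with no filter and 1 (OAS1) without knockdown replicates 1 and 2. Leaving out 1 library gave 0 to 7, the 7 without knockdown replicate 3. In rescue against knockdown-labelled, 3 passed with library size alone, 2 with no filter, 4 with the DESeq2 Wald test, 0 with only the groups compared, 8 without knockdown replicates 1 and 2, and 1 to 8 when 1 library was left out, the 8 without knockdown replicate 3. In rescue against control, 1 passed, MX1, with only the groups compared (25 genes tested), without knockdown replicates 1 and 2, and without knockdown replicate 3; leaving out 1 library gave 0 to 1. The cause was not tested. All genes passing in the 3 comparisons were 1, 1651 and 25, against 5691, 6745 and 1276 without knockdown replicate 3, 2115, 3619 and 977 without knockdown replicates 1 and 2, 0, 442 and 4 with the block, 153, 1557 and 21 with library size alone, 1009, 2702 and 326 with the DESeq2 Wald test, 1045, 2636 and 401 with no filter and 0, 7 and 962 with only the groups compared.

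The median log2 fold change of the 26 genes was -0.19 in knockdown-labelled against control and 0.25 in rescue against knockdown-labelled with library size alone, where the median of all genes also moved, to -0.21 and 0.24. Leaving out 1 library gave medians of -0.14 to 0.12, -0.10 to 0.09 and 0.016 to 0.099 in the 3 comparisons, with 0.022 without rescue replicate 3 in the last. MX1 in rescue against knockdown-labelled kept its direction in all 17 alternatives and passed in 16, at log2 fold changes of 0.86 to 1.32 (adjusted p of 5.15e-08 to 0.0546). IRF1 passed in 2 of 17 in that comparison, STAT2 in 2, TYK2 in 4 and USP18 in 1, and none of them changed sign there. In rescue against knockdown-labelled, 14 of the 26 intervals reached 2-fold, that of MX1 among them; the 12 genes below the count rule were not tested.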

Other observations

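Signalling genes outside the 38 also split the knockdown-labelled libraries, and the 3 below were chosen after their values were seen. MAVS, the mitochondrial adaptor of RNA sensing, was at 89.1, 93.3 and 148 CPM in knockdown-labelled replicates 1, 2 and 3, with 153, 164 and 133 in control and 158, 167 and 144 in rescue libraries. Replicate 3 thus lies among the controls. The interferon gamma receptor chain IFNGR1 went the other way, at 58.5, 66.4 and 37.1 CPM, with 36.6 to 37.95 in control and 32.2 to 39.9 in rescue libraries. ISG20, an exonuclease, was at 42.7, 36.0 and 15.0 CPM, with 17.7, 20.7 and 30.1 in control and 37.4, 36.6 and 46.0 in rescue libraries. None of the 3 passed in edgeR in any comparison of the 9 libraries.

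The DNA and RNA sensors CGAS and TLR3 had 0 counts in all 9 libraries, and STING1, the adaptor downstream of CGAS, had at most 5 in a library.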
